A study of Mus musculus with 6 samples.

Results

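The 10 enzymes that make serine and move its one-carbon unit through folate were followed in mouse embryonic brain, chosen by name from the gene tables: Phgdh, Psat1 and Psph of serine synthesis, the cytosolic folate enzymes Shmt1, Mthfd1 and Aldh1l1, and the mitochondrial folate enzymes Shmt2, Mthfd1l, Mthfd2 and Aldh1l2. All 10 were found among the 24848 genes listed, and all 10 passed the filter on low counts that left 15848 genes for testing. Polyadenylated RNA had been sequenced from brains of E14.5 embryos, with 3 libraries under the genotype label WT (wild type) and 3 under KO (E4f1 knockout), one library per brain. The zinc finger protein E4F1 regulates transcription, and by its title the series concerns its roles in pyruvate metabolism and in faithful translation during brain development. The labels give neither the strain, the allele, a Cre driver, the litter nor the cells that carry the deletion, so how complete the loss is in each cell type is not given in the sources used here. Each brain has its own animal number in the labels.

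Serine is made from a glycolytic intermediate in 3 steps, a dehydrogenase (PHGDH), an aminotransferase (PSAT1) and a phosphatase (PSPH). Serine hydroxymethyltransferase then splits serine into glycine and a one-carbon unit bound to tetrahydrofolate. Mitochondria and cytosol hold parallel sets of folate enzymes: the mitochondrial set mostly turns the unit into formate, which leaves for the cytosol and is used there for purines, thymidylate and methionine. In embryos this supply serves dividing cells, and folate enzymes have long been studied in neural tube closure. Several of these genes are known targets of ATF4, the transcription factor of the integrated stress response.

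The libraries held between 42113465 and 74064707 expected counts, the read pairs that RSEM assigned to genes. The expected counts of all 10 enzymes were whole numbers in all 6 libraries. This did not set them apart, since almost all genes had such counts, from 98.91% in WT 3 to 98.97% in KO 2 (tolerance 0.005). Whether pairs of the enzymes had been shared out between genes by estimate was not tested, as the settings of the counting were not given. The WT libraries held E4f1 at 20.7, 21.6 and 21.5 CPM (counts scaled to one library total with TMM factors), and the KO libraries held 7.12, 7.01 and 6.92 CPM; values of 3 libraries are given throughout in the order of the replicate numbers. Its fold change, like all below a log2 value of KO minus WT with its SE over 3 and 3 brains, was -1.60 ± 0.08 (edgeR adjusted p = 0.00142). The libraries differed in a score of the midbrain markers En1, En2 and Pax5 (mean log2 CPM). It ran from -0.19 (WT 3) to 4.12 (WT 1) in the WT brains and from -3.05 to -1.31 in the KO brains. The score was higher in every WT library, so a fit with it as a covariate cannot cleanly separate score and genotype. In that fit E4f1 itself was not called (-1.65 ± 0.16, edgeR adjusted p = 0.219). In whole tissue, fewer cells of a type and less RNA per cell cannot be told apart. Nothing in the labels says whether brains shared a litter. The edgeR p-values weigh the difference between the groups against the spread within the groups of these 6 brains. That spread is moderated over all genes, and the SE of a fold change was derived from the same test.

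Of the 10 enzymes, Mthfd2 alone rose in KO at an adjusted p below 0.05 and none fell, against 0.511% of all tested genes called higher and 0.492% called lower. The other 9 did not pass the test. For 9 of the 10 enzymes, every KO library lay above every WT library, as it did for 14.6% of all tested genes. The same 9 had an unadjusted p below 0.05, as did 10.3% of all tested genes in that direction. At that level 0 of the 10 were lower, against 1475 of the 15848 tested genes. The 1 enzyme outside the 9 was Aldh1l1, whose fold change was negative. The median log2 fold change was 0.81 over the 10 enzymes and -0.000767 over all tested genes. DESeq2, run as an alternative, called the same 9 enzymes higher and none lower, where it called 4.97% of its tested genes higher and 4.18% lower. Limma called 3 enzymes higher on log2(TPM + 1) and on log2(TPM + 0.1), against 0.873% and 0.838% of genes, and limma-voom 2, against 0.612%. Within edgeR, 2 were called with library totals (0.776% of genes), upper quartile scaling (0.656%), a filter of 1 CPM (0.756%), estimation that was not robust (0.524%) and the replicate number as a block (0.151%). Mthfd2 alone was called with RLE size factors (0.448%) and without a filter (0.321%). It was also the sole enzyme called with a block of 2 levels, the close animal numbers (WT 1, WT 2, KO 1 and KO 2) against the others (0.227%). The same held in each fit without 1 library, of WT 1 (0.151%), WT 2 (0.249%), WT 3 (0.10%), KO 1 (0.0753%), KO 2 (0.186%) or KO 3 (0.168%).

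Mthfd2 encodes the mitochondrial dehydrogenase and cyclohydrolase that oxidises the one-carbon unit, an enzyme of embryonic and proliferating cells. It stood at 15.5, 14.3 and 14.1 CPM in WT and at 39.2, 34.0 and 36.8 CPM in KO. The KO libraries lay far above the WT libraries, and the 3 libraries of each group lay close together. The gene rose 2.5-fold, from 14.7 ± 0.743 to 36.7 ± 2.63 CPM (SD, n = 3 per group), with a log2 fold change of 1.32 ± 0.09 (SE) and an edgeR adjusted p of 0.00210, the 20th smallest p of all tested genes. It was called in each of the 6 fits that left out 1 library, with an adjusted p between 0.00991 and 0.0300. The call ended with the midbrain score as a covariate (1.35 ± 0.19, adjusted p = 0.332) and in the 4 brains with close animal numbers, WT 1, WT 2, KO 1 and KO 2 (1.30 ± 0.14, adjusted p = 0.112), 2 fits in which edgeR called 0 of all genes tested (753 and 1546 had an unadjusted p below 0.05).

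The promoters of Mthfd2 and Shmt2 are shown because these enzymes had the smallest p values, and that of Mthfd1l because it alone held one of the motifs looked for. Each run gives the 250 bases before the start of a RefSeq transcript (GRCm38), on the strand of the gene. Capitals mark CCAAT or its reverse complement ATTGG in Mthfd2 (chr6:83317605-83317854, minus strand), the 10-base palindrome to which the factor NRF1 binds in Shmt2 (chr10:127522445-127522694, minus strand), and TGACGTNA, the core bound by ATF and CREB factors and by E4F1, in Mthfd1l (chr10:3972825-3973074, plus strand), where it reads TAACGTCA on the strand shown. The Mthfd2 window belongs to a start inside the longest annotated extent of the gene. Most of the Mthfd1l window, its marked motif included, lies inside the annotated gene, downstream of the annotated start, and the bases that follow the window were not found in a GENCODE transcript of the gene.
Mthfd2: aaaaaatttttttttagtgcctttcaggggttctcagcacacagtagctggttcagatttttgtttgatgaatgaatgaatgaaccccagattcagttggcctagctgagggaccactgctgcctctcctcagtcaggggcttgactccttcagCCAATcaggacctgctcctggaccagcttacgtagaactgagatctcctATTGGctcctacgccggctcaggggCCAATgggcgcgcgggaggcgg
Shmt2: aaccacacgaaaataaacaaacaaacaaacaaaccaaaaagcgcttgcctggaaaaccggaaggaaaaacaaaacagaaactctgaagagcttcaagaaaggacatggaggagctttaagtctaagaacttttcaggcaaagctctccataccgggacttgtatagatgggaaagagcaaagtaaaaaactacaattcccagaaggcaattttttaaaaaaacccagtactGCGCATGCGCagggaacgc
Mthfd1l: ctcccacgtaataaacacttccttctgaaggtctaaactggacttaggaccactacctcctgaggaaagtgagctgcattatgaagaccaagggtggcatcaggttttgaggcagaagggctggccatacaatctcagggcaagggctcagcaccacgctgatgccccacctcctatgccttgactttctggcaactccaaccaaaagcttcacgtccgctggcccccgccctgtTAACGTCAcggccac

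Windows of 250 bases before and 50 bases after a start were on hand for 9 of the 10 enzymes, 10 windows in all. Searched on both strands, TGATGNAA, the core of the element that ATF4 binds with C/EBP factors, lay in 0 of the 10 windows and in 3.97% of 32851 mouse windows. TGACGTNA lay in 1 of the 10, that of Mthfd1l, and in 2.93% of all windows. The other motifs were chosen after the windows had been read: CCAAT lay in windows of 7 of the 9 enzymes and in 37.4% of all windows, and the NRF1 palindrome in that of Shmt2 and in 0.971% of all windows. None of these motifs shares letters with another in the runs printed. A match in letters is not a bound site, and these windows leave out introns and distal elements.

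**Figure D1:**
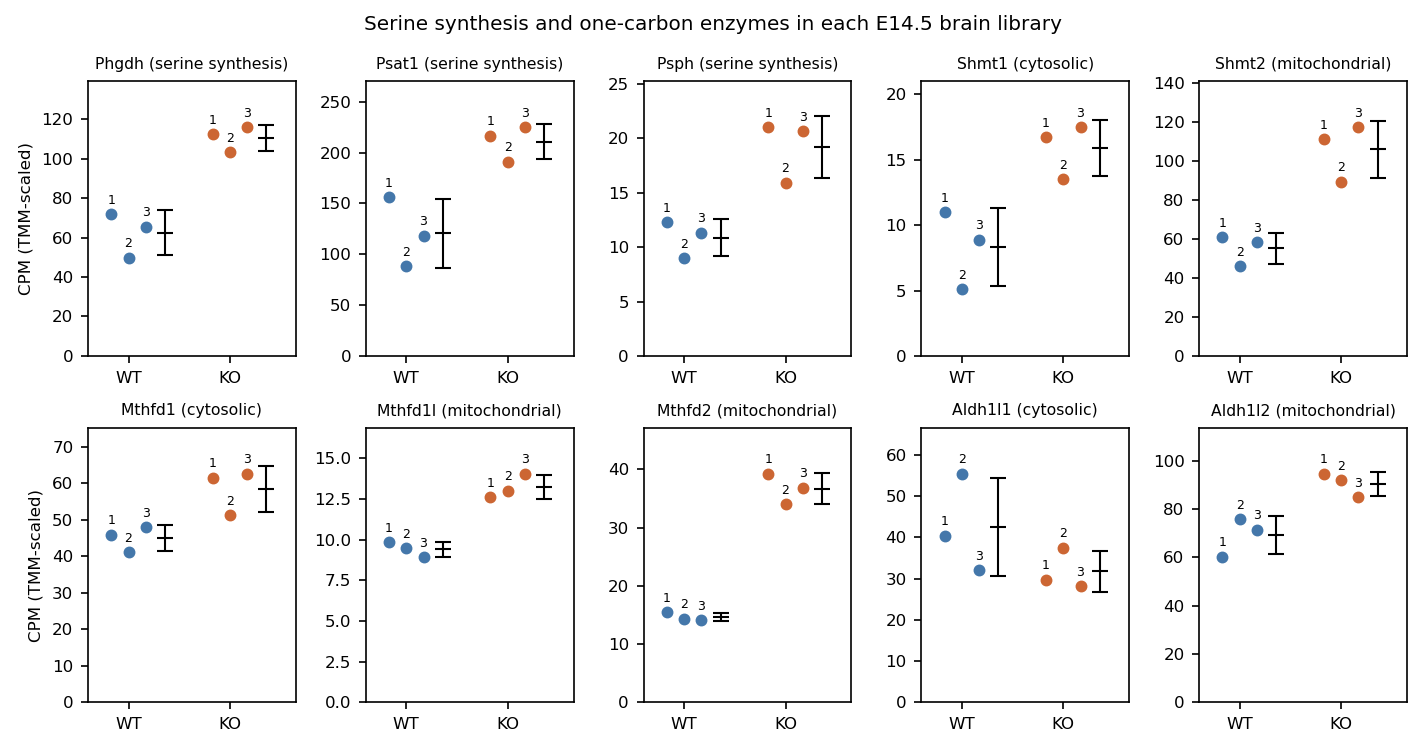
Level of each enzyme in each library, in CPM after TMM scaling on a linear axis from 0; blue points are the WT and orange points the KO libraries, numbered by replicate, and the bar beside them is the mean ± SD (n = 3). In 9 of 10 panels every KO point lies above every WT point, and in the Aldh1l1 panel the groups overlap.

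The serine synthesis enzymes had fold changes of almost the same size. Phgdh, the dehydrogenase that commits carbon to serine (GRCm38 chromosome 3, 98313171 to 98339969), stood at 72.0, 49.8 and 65.4 CPM in WT and at 112, 103 and 116 CPM in KO. Its log2 fold change was 0.83 ± 0.14 (edgeR adjusted p = 0.0611). Psat1, the aminotransferase (chromosome 19, 15905123 to 15925059), stood at 156, 88.2 and 118 CPM in WT and at 216, 191 and 225 CPM in KO. The WT libraries differed widely, WT 2 being well below WT 1, and all KO libraries lay above them. The log2 fold change of Psat1 was 0.80 ± 0.20 (edgeR adjusted p = 0.128). Psph, the phosphatase of the last step (chromosome 5, 129765558 to 129787443), stood at 12.3, 9.0 and 11.3 CPM in WT and at 21.0, 15.9 and 20.6 CPM in KO, again without overlap. Its log2 fold change was 0.82 ± 0.16 (edgeR adjusted p = 0.0844). None of the 3 was called in any of the 6 fits without 1 library, where their fold changes stayed between 0.62 and 1.03.

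The 2 forms of serine hydroxymethyltransferase also had fold changes of like size. Shmt2, the mitochondrial form (chromosome 10, 127517123 to 127522444), stood at 61.0, 46.1 and 58.2 CPM in WT and at 111, 89.4 and 117 CPM in KO. Its log2 fold change of 0.94 ± 0.15 missed the threshold narrowly (edgeR adjusted p = 0.0523), and 9 of 20 alternative fits called it. Among these was the fit with the replicate number as a block (0.94 ± 0.06, adjusted p = 0.0210), but no fit without 1 library (adjusted p between 0.0571 and 0.260). Shmt1, the cytosolic form (chromosome 11, 60788897 to 60811265), was much scarcer, at 11.0, 5.11 and 8.90 CPM in WT and at 16.7, 13.5 and 17.5 CPM in KO. Here too the groups did not overlap, but WT 2 held well under the level of the other WT brains. The log2 fold change of Shmt1 was 0.93 ± 0.28 (edgeR adjusted p = 0.165), and it was 0.68 without WT 2.

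Among the enzymes that interconvert one-carbon folates, Mthfd1 and Mthfd1l had smaller fold changes than Mthfd2. Mthfd1, the cytosolic enzyme with dehydrogenase, cyclohydrolase and synthetase activities (chromosome 12, 76254406 to 76319820), stood at 45.9, 41.1 and 47.9 CPM in WT and at 61.5, 51.2 and 62.6 CPM in KO. Its log2 fold change was 0.38 ± 0.10 (edgeR adjusted p = 0.141). Mthfd1l, the mitochondrial synthetase that releases formate (chromosome 10, 3972892 to 4167081), stood at 9.84, 9.49 and 8.93 CPM in WT and at 12.6, 13.0 and 14.0 CPM in KO. The spread within its groups was small, and the log2 fold change was 0.49 ± 0.10 (edgeR adjusted p = 0.0857). Mthfd2 itself lies on chromosome 6, 83305704 to 83326011.

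The formyltetrahydrofolate dehydrogenases, which burn the one-carbon unit to carbon dioxide and make NADPH, had fold changes of opposite sign. Aldh1l2, the mitochondrial form (chromosome 10, 83487447 to 83534146), stood at 60.3, 75.8 and 71.4 CPM in WT and at 94.5, 91.9 and 84.8 CPM in KO, a log2 fold change of 0.39 ± 0.10 (edgeR adjusted p = 0.130). Aldh1l1, the cytosolic form and a marker of radial glia and astrocytes (chromosome 6, 90550768 to 90599171), stood at 40.4, 55.4 and 32.0 CPM in WT and at 29.7, 37.5 and 28.2 CPM in KO. Its groups overlapped, since KO 2 exceeded WT 3, and the log2 fold change was -0.42 ± 0.22 (edgeR adjusted p = 0.337). Without WT 2 it was -0.19 and without WT 3 it was -0.59. With the midbrain score as a covariate the value of Aldh1l1 turned to 0.18 ± 0.35 (adjusted p = 0.983).

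**Figure D2:**
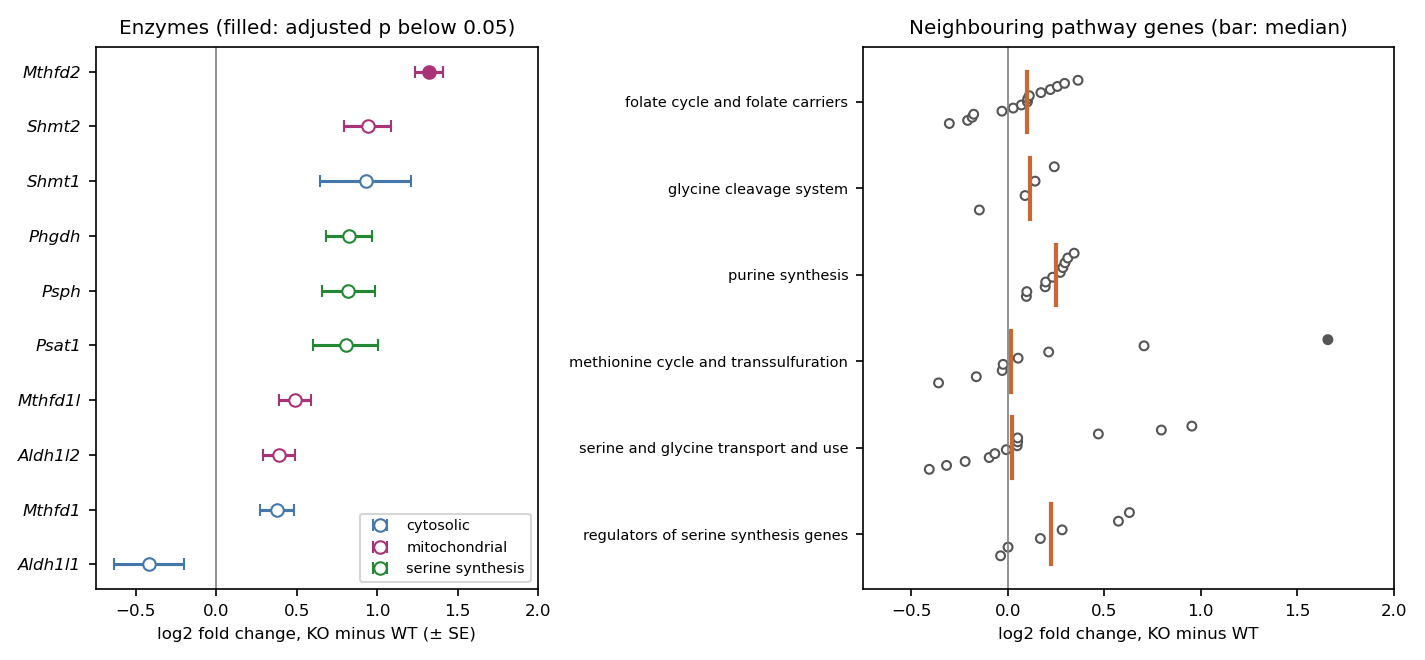
Left, log2 fold change of KO minus WT with its SE for each enzyme, coloured by place in the pathway; right, the log2 fold changes of the tested genes of 6 neighbouring lists, 1 point per gene, with the median of each list as a bar. Filled points have an edgeR adjusted p below 0.05: Mthfd2 on the left (1.32) and Cth on the right (1.66).

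Exons of 4 enzymes overlap exons of a gene on the opposite strand that the tables also list, per GENCODE: Psph with Cct6a over 452 of 4329 exon bases, Shmt1 with Smcr8 over 184 of 3883, Shmt2 with Ndufa4l2 over 32 of 3109, and Aldh1l2 with D10Wsu102e over 1056 of 7503. The library kit keeps strand, but the strand setting of the counting is not given in the sources used here, so reads there may belong to either gene. None of these neighbours was called: Cct6a, Smcr8, Ndufa4l2 and D10Wsu102e had log2 fold changes of -0.06, -0.19, 0.42 and -0.13.

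Mitochondrial and cytosolic paralogs were compared within each library by the ratio of their counts, which does not depend on how libraries are scaled. Levels of the ratio are given from TPM, which allows for transcript length, and differences from the counts. Mthfd2 over Mthfd1 was 0.566, 0.585 and 0.495 in WT and 1.07, 1.11 and 0.988 in KO, so Mthfd2 went from the scarcer of the pair to about the same level. The ratio was higher in KO by 0.95 on the log2 scale of counts, from -1.62 ± 0.13 to -0.67 ± 0.09 (SD, n = 3 per group; two-sided exact permutation p = 0.1, the smallest that 3 against 3 libraries can give, and 0.2 after Benjamini-Hochberg adjustment over the 4 ratios). Mthfd2l, a relative of Mthfd2 that is not among the enzymes followed, was not part of this ratio. It stood at 35.5, 25.6 and 30.7 TPM in WT and at 25.3, 26.3 and 26.6 TPM in KO. That was above Mthfd2 in WT (19.9 ± 1.03 TPM) and below it in KO (49.1 ± 3.78 TPM). The log2 fold change of Mthfd2l was -0.21 ± 0.13 (edgeR adjusted p = 0.406). Aldh1l2 over Aldh1l1 was 0.738, 0.678 and 1.10 in WT and 1.58, 1.21 and 1.49 in KO. It was higher by 0.79, from 0.73 ± 0.38 to 1.52 ± 0.20 (exact permutation p = 0.1, 0.2 adjusted), and the WT 3 and KO 2 values lay close together.

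The other ratios overlapped between the groups. Shmt2 over Shmt1 was 4.91, 7.99 and 5.79 in WT and 5.88, 5.86 and 5.94 in KO, so the KO values lay within the WT range and hardly differed from each other. The difference was -0.05 (2.78 ± 0.36 in WT and 2.73 ± 0.01 in KO, exact permutation p = 1), and without WT 2 it turned to 0.14. Mthfd1l over Mthfd1 was 0.190, 0.205 and 0.166 in WT and 0.182, 0.226 and 0.200 in KO, a difference of 0.11 (-2.25 ± 0.16 and -2.14 ± 0.15, exact permutation p = 0.5, 0.667 adjusted). Thus 2 of the 4 ratios had KO values entirely above the WT values, and a difference between mitochondrial and cytosolic enzymes as classes was not tested.

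**Figure D3:**
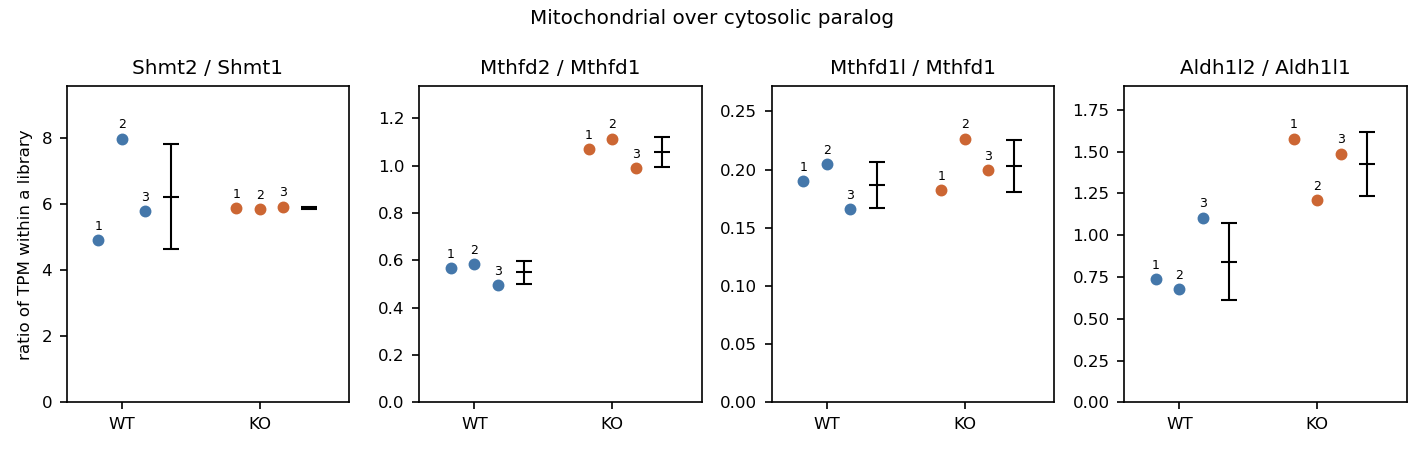
Ratio of the TPM of a mitochondrial enzyme to that of its cytosolic paralog in each library, on linear axes from 0, with replicate numbers and the mean ± SD (n = 3) beside the points. The ratio of Mthfd2 to Mthfd1 lies between 0.495 and 0.585 in WT and between 0.988 and 1.11 in KO, while the KO ratios of Shmt2 to Shmt1 lie inside the WT range.

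Levels per transcript length placed Psat1, Phgdh and Shmt2 at the top, and Psph seventh of the 10. In WT, Psat1 had 156 ± 43.6 TPM, Phgdh 95.1 ± 17.3, Shmt2 66.6 ± 9.44, Aldh1l1 37.3 ± 10.5, Mthfd1 36.5 ± 2.75, Aldh1l2 30.0 ± 3.49, Psph 20.8 ± 3.21, Mthfd2 19.9 ± 1.03, Shmt1 11.4 ± 4.06 and Mthfd1l 6.78 ± 0.329 (SD, n = 3). Neighbours in this order overlapped between libraries for Aldh1l1 and Mthfd1, Psph and Mthfd2, and Shmt1 and Mthfd1l, and were separate for the rest. In KO the first 3 places were the same. Mthfd2 went from the eighth to the fourth place at 49.1 ± 3.78 TPM. Aldh1l1 went from the fourth to the eighth at 27.4 ± 4.50 TPM. Neither place was separate from the one next to it. In KO, Mthfd2 overlapped Mthfd1 (46.6 ± 4.85 TPM), and Aldh1l1 overlapped Psph (36.1 ± 5.26 TPM).

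Within each group the enzymes tended to be low in the same brain. WT 2 had the lowest WT level in CPM of 6 of the 10 enzymes (Phgdh, Psat1, Psph, Shmt1, Shmt2 and Mthfd1) and the highest level of Aldh1l1 and Aldh1l2. KO 2 had the lowest KO level of the same 6 and of Mthfd2, and the highest of Aldh1l1. Summed over 8 genes, neuron markers were highest in these same brains. The sums were 6290, 7567 and 6740 TPM in WT 1 to 3 and 5114, 5684 and 4562 TPM in KO 1 to 3. Not every gene had this order. In TPM, Tubb3, Stmn2, Gap43 and Syt1 were highest in WT 2 and in KO 2. Dcx and Neurod6 were highest in WT 3 and in KO 3. Map2 was highest in WT 3 and KO 2, and Snap25 in WT 2 and KO 1. Intermediate progenitor markers (Eomes, Neurog2, Insm1 and Btg2) were lowest in WT 2 and KO 2. Their sums were 401, 228 and 434 TPM in WT and 434, 328 and 495 TPM in KO. The summed neuron markers were lower in every KO than in every WT library, though 0 of the 8 were called, with a median log2 fold change of -0.43. Of the 8, 4 were lower at an unadjusted p below 0.05, as were 1475 of 15848 tested genes. Among these 4 was Dcx (-0.49 ± 0.09, edgeR adjusted p = 0.0681). Another 2 had positive fold changes, Snap25 (0.20 ± 0.16) and Neurod6 (0.17 ± 0.37). Tubb3 was the largest part of the sum, at 2965 ± 135 TPM in WT and 2130 ± 347 TPM in KO (SD, n = 3). The 11 markers of radial glia and dividing progenitors, 0 of them called, summed to between 2698 and 3258 TPM in WT and between 2578 and 2750 TPM in KO. Of these 11 progenitor markers 8 had positive fold changes, such as the proliferation genes Mki67 (0.35 ± 0.24) and Top2a (0.44 ± 0.27). Fabp7, the most abundant of them, had -0.58 ± 0.09 (edgeR adjusted p = 0.0555) and was the one marker of this list with an unadjusted p below 0.05. The part of these cell types in the enzymes' levels was not tested.

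Markers of 9 further sources were examined, and Cx3cr1 of microglia was the sole call among them (1.03 ± 0.15, edgeR adjusted p = 0.0395, not called in any fit without 1 library). The 7 microglial markers summed to between 64.0 and 113 TPM in WT and between 116 and 178 TPM in KO, and the 5 endothelial markers to between 174 and 216 TPM in WT and between 233 and 322 TPM in KO. Both sums were higher in every KO than in every WT library. At an unadjusted p below 0.05, 5 of the 7 and 4 of the 5 genes were higher, as were 10.3% of all tested genes. The ranges overlapped between the groups for astrocytes (143 to 182 TPM in WT, 104 to 233 TPM in KO), oligodendrocyte precursors (60.1 to 120 and 63.6 to 77.3), meninges and mesenchyme (295 to 1279 and 231 to 2441), choroid plexus (772 to 959 and 406 to 887, 4 genes of which Folr1 is also a folate carrier listed below), erythroid cells (2007 to 5740 and 4467 to 6350) and liver (1.35 to 3.05 and 1.19 to 3.28). Among the 7 erythroid genes, the adult globins Hba-a1, Hba-a2, Hbb-bt and Hbb-bs were higher in every KO than in every WT library, Hba-a1 and Hbb-bt at an unadjusted p below 0.05 and 0 at an adjusted one. The embryonic globins stood apart in WT 1, with Hbb-y at 2346 TPM and Hba-x at 530 TPM, against 10.3 and 6.85 TPM in WT 2. The 3 midbrain markers summed to between 3.45 and 70.3 TPM in WT and between 0.380 and 1.60 TPM in KO. No marker was at 0 in all libraries, and 2 of the 4 liver markers were too low to be tested. Their part in the levels of the 10 enzymes was not tested.

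Few neighbouring genes of one-carbon metabolism passed the test. At an unadjusted p below 0.05, 10.3% of all tested genes were higher in KO and 1475 of 15848 were lower, beside which the counts of these lists stand. Among 15 tested genes of the folate cycle and folate carriers, among them dihydrofolate reductase, thymidylate synthase and the carriers, none was called or reached an unadjusted p below 0.05 in either direction, and the median log2 fold change was 0.10. The lowest p values belonged to Mtr, methionine synthase (0.22 ± 0.13, edgeR adjusted p = 0.378), and Slc19a1, the reduced folate carrier (0.17 ± 0.10, adjusted p = 0.391). The 4 genes of the glycine cleavage system, which feeds mitochondrial folate from glycine, held 0 calls and 0 genes at an unadjusted p below 0.05, with a median of 0.12, Dld at -0.15 ± 0.07 and Gcsh at 0.24 ± 0.12 (adjusted p = 0.279 and 0.312). All 10 genes of purine synthesis, a user of formyl folate, had positive fold changes with a median of 0.25, but 0 were called and 3 were higher at an unadjusted p below 0.05. Atic, which adds a formyl group of the purine ring, had 0.29 ± 0.08 (adjusted p = 0.143), and Impdh2, of guanine nucleotide synthesis, 0.31 ± 0.09 (adjusted p = 0.145).

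Genes that take serine further showed one call. The 8 tested genes of the methionine cycle and transsulfuration had a median of 0.02. Of these, 3 were higher and 0 lower at an unadjusted p below 0.05. The call was Cth, the cystathionine lyase that releases cysteine. It rose from 1.93 ± 0.572 to 6.13 ± 0.672 CPM (SD, n = 3 per group), a log2 fold change of 1.66 ± 0.25 (edgeR adjusted p = 0.0489). Its call ended in every fit without 1 library (adjusted p between 0.0643 and 0.257). Ahcyl1, a relative of adenosylhomocysteinase, had 0.21 ± 0.05 (adjusted p = 0.128). Cbs, of transsulfuration, had 0.71 ± 0.20 (adjusted p = 0.144), and its KO libraries lay above its WT libraries. Among 12 tested genes of serine and glycine transport and use, with a median of 0.02, 0 were called, 3 were higher and 2 lower at an unadjusted p below 0.05. Slc1a5 and Slc1a4, carriers of neutral amino acids including serine, had 0.95 ± 0.16 and 0.47 ± 0.13 (adjusted p = 0.0589 and 0.144), and their KO libraries lay above their WT libraries.

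Of 6 genes whose products are known to regulate serine synthesis genes, 0 were called and 3 were higher at an unadjusted p below 0.05, with a median log2 fold change of 0.23. Atf4 stood at 123, 101 and 101 CPM in WT and at 170, 159 and 156 CPM in KO (0.57 ± 0.10, edgeR adjusted p = 0.0588), without overlap. Nfe2l2, the antioxidant regulator NRF2, had 0.63 ± 0.20 (adjusted p = 0.179). Transcript levels do not measure ATF4 protein, which is mainly set by translation.

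The genes whose log2 CPM followed that of Mthfd2 most closely over the 6 libraries were Nars, the cytosolic asparaginyl-tRNA synthetase, and Sesn2, a stress-induced brake on mTORC1, each with a Pearson correlation of 0.997. The 6 points fall into 2 groups, so such a correlation mainly describes the difference between WT and KO. Nars stood at 115, 114 and 109 CPM in WT and at 167, 161 and 161 CPM in KO (0.53 ± 0.05, edgeR adjusted p = 0.0123), and was called in 1 of the 6 fits without 1 library, that without WT 2. Sesn2 stood at 7.10, 7.08 and 6.96 CPM in WT and at 34.9, 30.4 and 35 CPM in KO (2.24 ± 0.09, adjusted p = 0.00103), and was called in all 6.

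**Figure D4:**
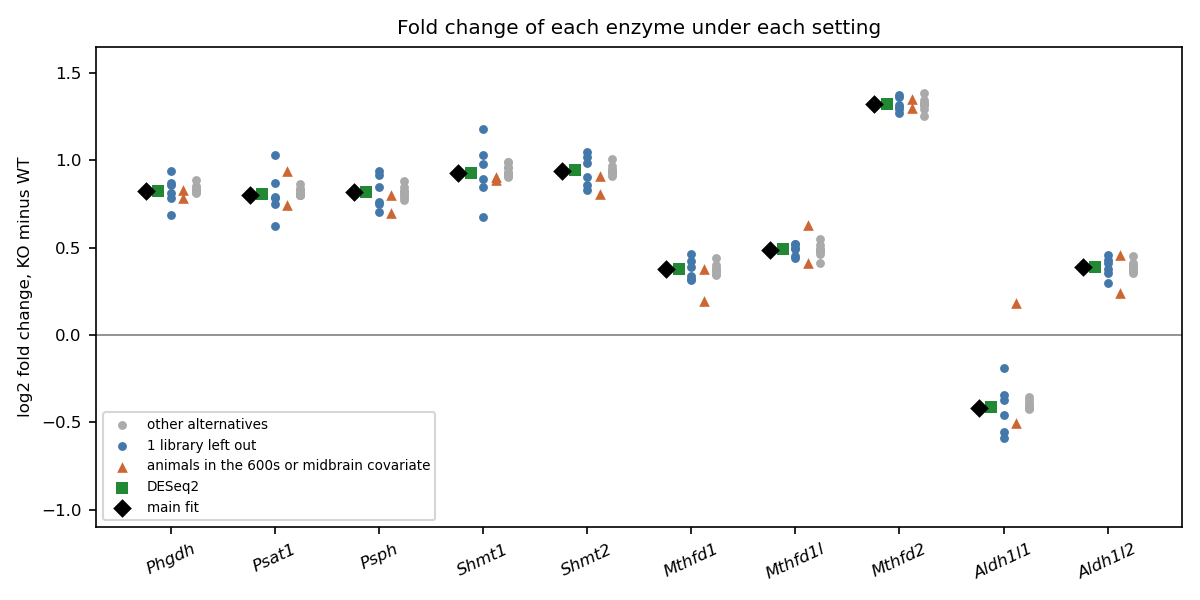
Log2 fold change of KO minus WT of each enzyme in the edgeR fit reported (diamonds), in DESeq2 (squares), without 1 library (blue), in WT 1, WT 2, KO 1 and KO 2 alone or with the midbrain score as covariate (triangles) and under the other alternatives (grey). Values of 9 enzymes stay above 0 throughout, Mthfd2 lies between 1.26 and 1.39, and Aldh1l1 lies above 0 in 1 fit, with the midbrain covariate.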

How the data were processed

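Per the labels' protocols, embryonic brains were dissected and frozen, RNA was extracted with Trizol, and libraries were made with a stranded KAPA kit. Among the tools in the submitters' processing notes are RSEM (version 1.2.28), STAR (version 2.5.3a), Trimmomatic and FastQC, beside the builds GRCm38 and mm10, while their settings were not given in the sources used here. Each deposited table holds an expected count and a TPM per gene, per the file headers.

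Expected counts were rounded and tested with edgeR (version 4.0.16): filterByExpr, TMM scaling and a robust quasi-likelihood F test, two-sided, with Benjamini-Hochberg adjustment over all tested genes; calls have an adjusted p below 0.05, and every adjusted p comes from this test unless another tool is named. Paralog ratios were formed per library from counts plus 0.5. Alternatives used DESeq2 (version 1.42.0), limma (version 3.58.1) on TPM plus 1 or 0.1, other scalings, filters, blocks and left-out libraries. On simulated counts for this comparison (15702 genes, 200 of them changed), all genes were given the same dispersion of 0.02. There edgeR recovered 98% of 2-fold and 100% of 4-fold changes, with 10 false calls. The spread of each gene between these brains was not simulated, so these shares do not carry over to the enzymes. Promoters and coordinates came from RefSeq tables of GRCm38. Named besides the 10 enzymes and E4f1 were, from each pathway list, its called genes or those with the smallest p. The 2 genes most correlated with a called enzyme were also named. Mthfd2l, Cbs and the neighbours with overlapping exons were named outside this rule. Marker genes serve as examples. The enzymes and lists were chosen with earlier results of these data known.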

Additional observations from a re-analysis of the deposited data

How the results depend on the processing

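The fold changes of the enzymes kept their direction in all 20 alternative fits but one: with the midbrain score as a covariate, Aldh1l1 turned to 0.18. The number of enzymes called higher, 1 in the fit reported, was 9 with DESeq2, 3 with limma on log2(TPM + 1) and on log2(TPM + 0.1), 2 with limma-voom, library totals, upper quartile scaling, a filter of 1 CPM, estimation that was not robust and the replicate block, and 0 in the 4 brains with close animal numbers and with the midbrain covariate, where 7 and 4 enzymes were higher at an unadjusted p below 0.05. It was 1 in each fit without 1 library, and DESeq2 called 0 lower. The 159 calls over all genes became 1445 with DESeq2, and 247 and 241 on the TPM scales with pseudocounts of 1 and 0.1. They became 66 with the replicate block (24 higher and 42 lower, against 81 and 78) and 87 with the block of close animal numbers against the others. There were 0 in the 4 brains with close animal numbers and with the midbrain covariate. In those 2 fits 1546 of 15951 and 753 of 15848 genes had an unadjusted p below 0.05, in either direction. Without 1 library the calls lay between 36 (without KO 1) and 82 (without WT 2). With library totals, which moved the median of all genes by 0.06, 123 genes were called higher and 63 lower. Same-numbered brains of the 2 groups deviated together with correlations of 0.12, 0.17 and 0.02. The closest KO brain of another number gave 0.007, -0.02 and 0.12 for WT 1, WT 2 and WT 3. These values do not decide whether the numbers are pairs, and the fit reported did not pair them. With the replicate block, Mthfd2 (edgeR adjusted p = 0.0168) and Shmt2 were the enzymes called. The cause of these differences between settings was not tested. The ratio of Shmt2 to Shmt1, -0.05, lay between -0.21 and 0.14 without 1 library and turned positive without WT 2, at 0.14; the other 3 ratios kept their sign in every alternative run. Pairing by replicate number leaves each ratio difference as it was.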
